A study of Homo sapiens with 24 samples.

Results

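The comparison was between Δ133p53α8 and Δ133p53α1, which are clonal cell lines made from NCI-H1299 cells to express the same p53 isoform, Δ133p53α. It used 8 of the 24 libraries of the series, 4 from each clone, chosen by their labels and by the matching columns of the count table. NCI-H1299 is a non-small cell lung cancer line that lacks p53, and the labels give plasmid as the treatment of all lines and the overexpressed isoform as the genotype. The other lines were Δ133p53α2, which is a further Δ133p53α clone, the Δ133p53β5 and Δ133p53β10 clones of a shorter isoform, and vector control cells, and 23 libraries entered the statistical model. Each line is 1 clone, so a difference between Δ133p53α8 and Δ133p53α1 describes these clones and cannot be told apart from the differences that any pair of cells from the parental population would carry. The labels do not say that the libraries of a clone came from separate cultures, so the p-values measure only the spread between these libraries, which may be technical.

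Δ133p53α is made from an internal promoter and lacks the N-terminal transactivation domains of p53, but keeps most of the DNA-binding domain and the oligomerisation domain. It can modify the activity of full-length p53 and of the p53 family members p63 and p73, and it has been linked to survival, migration and invasion of cancer cells. A clone is grown from a single transfected cell, so it carries its own transgene insertion together with whatever genes were active or silent in that founder cell, and such states can be inherited over many divisions.

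The 8 libraries had total counts between 21531599 and 22114711, and the libraries of each clone were not alike in composition. The genes' deviations in each library were compared with their exonic length, and the sign of Spearman's rho, a description across genes, put each library in a positive or a negative set. Δ133p53α8 replicates 1, 3 and 4 (rho 0.22, 0.22 and 0.26) and Δ133p53α1 replicate 1 (0.30) were in the positive set, and Δ133p53α8 replicate 2 (-0.22) and Δ133p53α1 replicates 2, 3 and 4 (-0.27, -0.27 and -0.25) were in the negative set. Cytosolic ribosomal protein genes took 5.99%, 6.44% and 5.44% of the counts in Δ133p53α8 replicates 1, 3 and 4 and 5.37% in Δ133p53α1 replicate 1, against 9.60% in Δ133p53α8 replicate 2 and 9.38%, 10.8% and 10.3% in Δ133p53α1 replicates 2, 3 and 4. So 3 libraries of Δ133p53α8 but only 1 of Δ133p53α1 were in the positive set, and the set and the clone are partly confounded. Splitting the 8 libraries by set held 67.9% of the sum of squares of log2 CPM (CPM, the counts scaled to library size) over all 18295 tested genes. Splitting them by clone held 35.3%, the second largest share among the 70 splits into 4 and 4 (exact permutation test, one-sided, p = 0.0571, where the smallest possible p is 0.0286). These splits put most libraries on the same sides, so their shares overlap, and this rank and p do not separate the clone from the set. Principal components were taken from only the 500 genes that varied most among these 8 libraries. The first component, with 77.3% of the variance of those genes, followed the set. The second, with 11.5%, had the 4 Δ133p53α8 libraries between 3.05 and 20.1 and the 4 Δ133p53α1 libraries between -21.9 and -1.79. The results below are therefore given from the edgeR fit of the 6 lines. For the counts of calls, and for some genes and lists, they are also given from the same fit with the set as a term. Calls of single genes with a library left out are from the fit without the term.

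Genes were called where the adjusted p was below 0.05 and the log2 fold change reached 1.5 in either direction. By this rule 46 of 18295 tested genes (0.251%) were higher in Δ133p53α8 and 49 (0.268%) were lower. These 95 genes make up 0.519% of those tested. The libraries of the clones did not overlap in CPM in 44 of the 46 and 48 of the 49 genes, against 8.60% of all tested genes, and the same libraries chose the called ones. Protein-coding genes made up 35 of the genes that were higher and 41 of those that were lower, and lncRNAs 7 and 5. The mean in the higher clone was under 1 CPM in 13 and 11 of them and at least 10 CPM in 6 and 11. With the set as a term, 52 genes (0.284%) were higher and 55 (0.301%) were lower. The fits shared 79 calls, 40 higher and 39 lower, while 16 genes were called only without the term and 28 only with it, and no called gene changed direction.

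The library left out could decide the count, because 1 library of each clone lies in the other clone's usual set. Without Δ133p53α1 replicate 1, 1002 genes were called higher and 341 lower, and without Δ133p53α8 replicate 2, 94 and 148. Without both of these libraries, the set and the clone coincided, and 1732 genes were called higher and 1484 lower. With the set as a term, the counts without Δ133p53α1 replicate 1 were 38 and 32, and those without Δ133p53α8 replicate 2 were 40 and 61. Leaving out any of the other 6 libraries gave 25 to 37 genes higher and 21 to 30 lower without the term. Within the positive set 7 genes were higher and 10 lower, and within the negative set 20 and 4, each with a single library on 1 side.

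The libraries that stand apart from the rest of their clone also give a comparison of their own, because Δ133p53α8 replicate 2 and Δ133p53α1 replicate 1 belong to opposite sets in the opposite order. Of the called genes, 44 of 46 and 48 of 49 had the same direction in this pair, with median log2 differences of 1.75 and -1.71, against 2.53 and -2.38 in the other 6 libraries. All 46 and all 49 had that direction within the positive set (medians 1.90 and -2.29) and within the negative set (medians 2.49 and -2.15). These are descriptions, since the same libraries entered the fit that chose the genes. The cytosolic ribosomal protein genes turned instead: their median log2 difference was 0.95 in the pair and -1.06 in the other 6 libraries. None of the 73 was called, which says little beside the 0.519% called over all tested genes. Over all tested genes, 3175 (17.4%) differed by at least 1.5 on the log2 scale in the 6 libraries, 1593 (8.71%) in the pair, 240 (1.31%) within the positive set and 350 (1.91%) within the negative set.

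**Figure D1:**
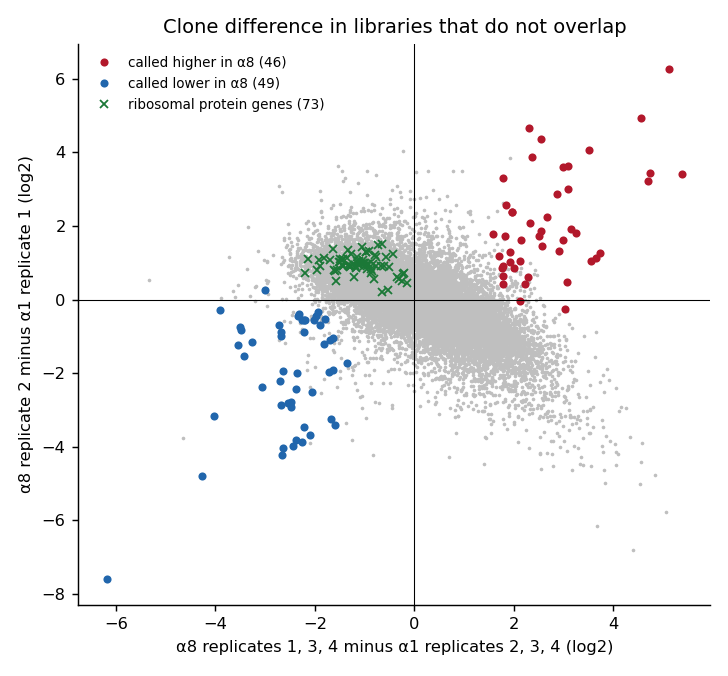
Each point is a tested gene, plotted by differences in mean log2 (CPM + 0.1). The horizontal axis gives Δ133p53α8 replicates 1, 3 and 4 minus Δ133p53α1 replicates 2, 3 and 4. The vertical axis gives Δ133p53α8 replicate 2 minus Δ133p53α1 replicate 1. The 46 and 49 called genes lie in the upper right and lower left apart from 3 of them, and the 73 ribosomal protein genes lie in the upper left.

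The means of the other lines were compared with those of the clones at each called gene. Each mean was counted as nearer to 1 of the clones, also where it lay above or below both. The same counts over all tested genes were not made. Among the 46 genes that were higher in Δ133p53α8, the control mean (log2 scale) was nearer to Δ133p53α8 in 30 and to Δ133p53α1 in 16, and the Δ133p53α2 mean was nearer to Δ133p53α8 in 31 and to Δ133p53α1 in 15. Among the 49 that were lower, the control was nearer to Δ133p53α8 in 22 and to Δ133p53α1 in 27, and Δ133p53α2 was nearer to Δ133p53α8 in 39 and to Δ133p53α1 in 10. With the set in the model the control was nearer to Δ133p53α8 in 19 and to Δ133p53α1 in 30 of the latter, and Δ133p53α2 in 38 and 11. Control and Δ133p53α2 each have 3 libraries in the positive set and 1 in the negative set, as Δ133p53α8 does.

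**Figure D2:**
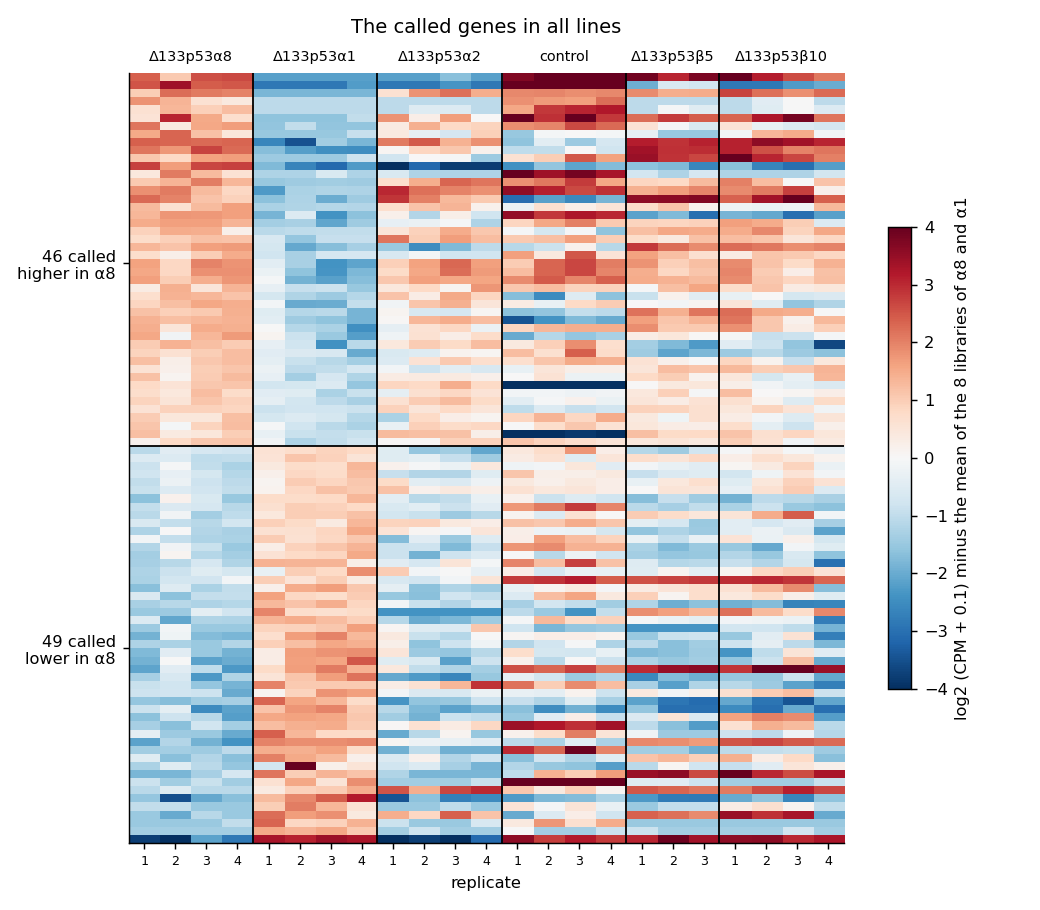
Rows are the 95 called genes, ordered by log2 fold change, and columns are the 23 libraries of the 6 lines; colour gives log2 (CPM + 0.1) minus the gene's mean over the 8 libraries of Δ133p53α8 and Δ133p53α1, limited to between -4 and 4. The upper 46 rows are higher in Δ133p53α8 and the lower 49 are lower, and the other lines follow either clone depending on the gene.

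A group of genes was read in 1 clone and nearly absent from the other. The clone with the lower level had no read in any library for 4 of the 46 and 1 of the 49 genes, and 1 to 3 reads in all for 7 and 4 more. SFMBT2, a Polycomb group protein with MBT repeats, had 53, 18, 61 and 64 reads in Δ133p53α8 replicates 1 to 4 and 0 in all Δ133p53α1 libraries. Δ133p53α8 was thus at least 13.9-fold higher, against a floor of 3 reads per Δ133p53α1 library, which covers counting error only (edgeR adjusted p = 0.000274). Control had 148 to 333 reads of SFMBT2 and Δ133p53α2 had 0 or 1, so the gene was at or near 0 in 2 of the 3 Δ133p53α clones. IL13RA2, a cell surface receptor that binds IL-13 and is known as a decoy, had 94, 161, 89 and 94 reads in Δ133p53α8 and 0, 0, 0 and 1 in Δ133p53α1. Their ratio was 383 (95% exact interval 68.3 to 15150, counting error only; edgeR adjusted p = 1.09e-06). Control had 265 to 670 reads of IL13RA2, Δ133p53α2 had 0 or 1 and the Δ133p53β clones 0 to 8.

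MGMT, which removes alkyl groups from guanine in DNA and whose promoter CpG island is often methylated in tumours, had 5, 19, 11 and 6 reads in Δ133p53α8 and 0, 0, 1 and 0 in Δ133p53α1. The ratio was 35.8 (95% exact interval 6.08 to 1449, counting error only; edgeR adjusted p = 0.00919), and the call was lost without Δ133p53α1 replicate 2 (adjusted p = 0.0515). Both clones were below the control, which had 51 to 123 reads, and Δ133p53α2 and the Δ133p53β clones had 0 or 1. The opposite pattern was seen at CYB5R2, a cytochrome b5 reductase, with 0 reads in every Δ133p53α8 library and 15, 11, 12 and 8 in Δ133p53α1, so Δ133p53α8 was at least 4.36-fold lower against the same floor (edgeR adjusted p = 0.00397). Control had 0 to 4 reads of it and Δ133p53α2 0 or 1, so Δ133p53α1 was the line that stood apart. CYB5R2 entered the test only through Δ133p53α1 replicates 1, 2 and 3, libraries of the clone where it was high. TUB, which encodes the tubby protein of primary cilium trafficking, had 0, 0, 0 and 1 reads in Δ133p53α8 and 31, 8, 8 and 12 in Δ133p53α1, a ratio of 67.5 (95% exact interval 11.7 to 2712, counting error only; edgeR adjusted p = 0.00671). CYB5R2 and TUB were named after their values were seen. They lie near each other on chromosome 11, at chr11:7665100-7677222 and chr11:8019244-8106243 (GRCh38), and CYB5R2 was next to PPFIBP2 (26, 7, 16 and 16 reads against 108, 97, 76 and 64) among the tested genes.

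The promoters of the 4 genes described above whose reads were almost confined to 1 of the clones, and which had an entry in the table, are shown. DNA methylation is usually studied at the CpG sites of this region, and it was not measured here. Each is the 250 bases before the start farthest upstream in the RefSeq table (GRCh38.p14), 5′ to 3′ on the gene's strand, with the CG dinucleotides in capitals. SFMBT2 is at chr10:7411491-7411740 (minus strand), MGMT at chr10:129466991-129467240 (plus), TUB at chr11:8018995-8019244 (plus) and CYB5R2 at chr11:7674268-7674517 (minus). By the GENCODE coordinates of the genes, the MGMT window runs past the start and the CYB5R2 window lies inside the gene.
SFMBT2: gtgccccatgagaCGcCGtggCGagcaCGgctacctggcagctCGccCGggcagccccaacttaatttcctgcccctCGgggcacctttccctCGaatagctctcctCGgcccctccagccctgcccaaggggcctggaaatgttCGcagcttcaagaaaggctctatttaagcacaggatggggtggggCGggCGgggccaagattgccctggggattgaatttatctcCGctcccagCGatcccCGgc
MGMT: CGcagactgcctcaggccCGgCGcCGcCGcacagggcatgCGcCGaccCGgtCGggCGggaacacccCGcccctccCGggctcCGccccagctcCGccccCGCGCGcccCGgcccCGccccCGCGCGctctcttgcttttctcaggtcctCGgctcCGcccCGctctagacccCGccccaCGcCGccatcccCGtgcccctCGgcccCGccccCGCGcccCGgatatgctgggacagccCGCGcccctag
TUB: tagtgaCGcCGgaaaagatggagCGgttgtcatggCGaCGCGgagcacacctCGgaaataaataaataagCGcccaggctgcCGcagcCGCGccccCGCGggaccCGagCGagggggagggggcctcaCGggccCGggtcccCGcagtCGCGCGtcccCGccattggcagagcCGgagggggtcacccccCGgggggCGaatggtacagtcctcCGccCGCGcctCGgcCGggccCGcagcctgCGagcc
CYB5R2: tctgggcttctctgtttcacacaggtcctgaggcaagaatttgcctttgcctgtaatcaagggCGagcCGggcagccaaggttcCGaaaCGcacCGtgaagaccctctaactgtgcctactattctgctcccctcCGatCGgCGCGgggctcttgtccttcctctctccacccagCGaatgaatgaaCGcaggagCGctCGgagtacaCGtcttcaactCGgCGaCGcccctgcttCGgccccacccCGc

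MGMT had 36 CG dinucleotides in this window, TUB had 32, CYB5R2 had 19 and SFMBT2 had 15. CG reads the same on both strands. Of the 11621 tested genes with a promoter in the table, the share with at least as many was 7.85%, 15.5%, 58.3% and 71.6%. The median over those genes was 21. The table held 10 protein-coding genes with at most 3 reads in the lower clone, and the 6 not shown included IHO1 with 2 CG, HLA-DQB1 with 5 and CFAP91 with 10. Among the called genes, 28 of the 46 and 34 of the 49 had a promoter, with medians of 18 and 11.5 CG, and at least 10 CG were found in 82.1% and 52.9% of them against 83.2% of the tested genes. This is a count of letters, with no test.

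The called genes with the largest rises in Δ133p53α8 included the receptors IL13RA2 and INSR, a chaperone and an ion channel. HSPB8, a small heat shock protein that acts with BAG3 in chaperone-assisted autophagy, had 135, 119, 124 and 131 reads in Δ133p53α8 and 2, 0, 6 and 4 in Δ133p53α1 (5.53 ± 0.227 against 0.157 ± 0.145 CPM, SD, n = 4). Its log2 fold change was 5.14 (SE 0.473, edgeR adjusted p = 1.53e-06). Control was low as well, at 7 to 17 reads, and Δ133p53α2 had 69 to 138, so Δ133p53α1 was the low Δ133p53α clone. ZNF558, a zinc finger repressor, had 116, 80, 173 and 130 reads against 6, 3, 2 and 2, with a log2 fold change of 5.03 (SE 0.418, edgeR adjusted p = 4.09e-07). TRPM2, a calcium-permeable channel opened under oxidative stress, had 90, 68, 41 and 35 reads against 4, 5, 2 and 4 (log2 fold change 3.74, SE 0.631, edgeR adjusted p = 0.00342). All libraries of Δ133p53α8 were above all of Δ133p53α1 at these genes, which the rule that named them required. TRPM2 had 0 to 3 reads in control, 39 to 107 in Δ133p53α2 and 100 to 424 in the Δ133p53β clones, so of the 5 transgenic clones Δ133p53α1 was the nearest to control.

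HPDL, a mitochondrial dioxygenase-like protein, had 38, 42, 25 and 18 reads in Δ133p53α8 and 0, 2, 2 and 2 in Δ133p53α1 (log2 fold change 4.06, edgeR adjusted p = 0.00155). FAIM, an inhibitor of Fas-induced apoptosis, had 45, 58, 61 and 58 against 3, 9, 1 and 3 (log2 fold change 3.56, edgeR adjusted p = 0.00112). Control was above both clones for FAIM, with 130 to 238 reads. ZDHHC15, a palmitoyltransferase, had 70, 73, 80 and 65 reads against 8, 7, 3 and 6 (log2 fold change 3.38, edgeR adjusted p = 0.000217). INSR, the insulin receptor, had 59, 47, 74 and 78 reads against 13, 3, 4 and 6 (log2 fold change 3.12, SE 0.42, edgeR adjusted p = 0.000339). For INSR the control (9 to 28 reads) and Δ133p53α2 (2 to 10) were both on the side of Δ133p53α1, and the Δ133p53β clones had 72 to 170. These 4 calls held with any 1 of the 8 libraries left out.

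TTN, the giant sarcomere protein of striated muscle, had 258, 146, 320 and 327 reads in Δ133p53α8 and 73, 23, 12 and 19 in Δ133p53α1, a log2 fold change of 2.91 (SE 0.463, edgeR adjusted p = 0.00177) or 2.49 with the set as a term. It was 1 of 5 neighbouring genes on chromosome 2, all called higher (chr2:178521183-178830802, GRCh38), and this was the only run of at least 3 tested neighbours called the same way. The others were the antisense gene TTN-AS1 (158, 83, 208 and 184 reads against 37, 16, 6 and 8) and 3 lncRNAs named by identifier. All 4 lie on the opposite strand and overlap TTN, and because the strand setting of the counting is not stated, reads of TTN and of its antisense genes may not be told apart. Control had 232 to 642 reads of TTN and Δ133p53α2 116 to 439, so Δ133p53α1 was the lower line.

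STAT6, the transcription factor that IL-4 and IL-13 receptors activate, had the smallest adjusted p among the genes that were lower. It had 24, 45, 29 and 20 reads in Δ133p53α8 and 462, 355, 328 and 353 in Δ133p53α1 (1.30 ± 0.555 against 18.6 ± 0.733 CPM, SD, n = 4), a log2 fold change of -3.83 (SE 0.263, edgeR adjusted p = 3.24e-08). Control had 45 to 94 reads and Δ133p53α2 85 to 96, so all Δ133p53α1 libraries lay above both lines, while Δ133p53α8 lay below Δ133p53α2 and overlapped control at replicate 2, and the Δ133p53β clones had 346 to 686. The gene for the IL-13 decoy receptor and the gene for STAT6 thus differed between the clones in opposite directions. TNIK, a kinase of the Wnt pathway, had 190, 160, 219 and 229 reads against 2936, 1427, 1128 and 755 in Δ133p53α1 (log2 fold change -3.11, SE 0.389, edgeR adjusted p = 0.000142). All other lines had 42 to 454 reads of TNIK, so the high level was seen only in the 4 Δ133p53α1 libraries. SFRP1, a secreted antagonist of Wnt ligands, had 6, 6, 3 and 2 reads against 60, 25, 23 and 24 (log2 fold change -3.06, edgeR adjusted p = 0.0245). Its call was lost without Δ133p53α8 replicate 1, 3 or 4, with an adjusted p of up to 0.117.

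Several of the other falls were of receptors, a matrix protease and enzymes. PLXNA2, a semaphorin receptor of axon guidance, had 1, 0, 2 and 1 reads in Δ133p53α8 and 42, 23, 24 and 8 in Δ133p53α1 (log2 fold change -4.60, SE 1.08, edgeR adjusted p = 0.0489). This was the least firm of the named genes: the call held only without Δ133p53α1 replicate 1 and was lost when any 1 of the other 7 was left out, with an adjusted p of up to 0.165. MMP9, a secreted gelatinase that degrades basement membrane collagen, had 18, 67, 15 and 17 reads against 91, 196, 175 and 340 (log2 fold change -2.98, SE 0.687, edgeR adjusted p = 0.0434). The highest Δ133p53α8 library was replicate 2 and the lowest Δ133p53α1 library was replicate 1. The call held without either of these libraries and was lost when any 1 of the other 6 was left out, with an adjusted p of up to 0.196. EPHB6, an Eph receptor without kinase activity, had 8, 11, 1 and 2 reads against 40, 52, 57 and 29 (log2 fold change -3.18, edgeR adjusted p = 0.0197), and SLC39A4, a zinc importer, had 7, 25, 18 and 6 against 68, 108, 133 and 85 (log2 fold change -3.02, edgeR adjusted p = 0.00919). The EPHB6 call was lost when any 1 of 5 libraries was left out, Δ133p53α8 replicates 1, 3 and 4 and Δ133p53α1 replicates 2 and 3 (adjusted p of up to 0.107), and the SLC39A4 call without Δ133p53α8 replicate 1 or 4 (up to 0.0552).

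FBXL7, a subunit of an SCF ubiquitin ligase, had 2, 1, 4 and 2 reads in Δ133p53α8 and 24, 23, 22 and 16 in Δ133p53α1 (log2 fold change -3.37, edgeR adjusted p = 0.00247), and this call held with any 1 library left out. Control had 91 to 128 reads, above both clones. AFF3, a nuclear protein of the AF4 family of transcription elongation factors, had 5, 1, 1 and 0 reads against 48, 18, 11 and 11 (log2 fold change -3.68, edgeR adjusted p = 0.0354). MAT1A, the liver form of methionine adenosyltransferase, had 4, 8, 7 and 2 against 56, 49, 43 and 32 (log2 fold change -3.25, edgeR adjusted p = 0.0250). The libraries of the clones did not overlap for either gene, which the rule that named them required. The AFF3 call was lost without Δ133p53α1 replicate 2 or 3 or Δ133p53α8 replicate 3 or 4 (adjusted p of up to 0.157), and the MAT1A call without Δ133p53α1 replicate 2 or 3 or Δ133p53α8 replicate 1, 3 or 4 (up to 0.123).

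**Figure D3:**
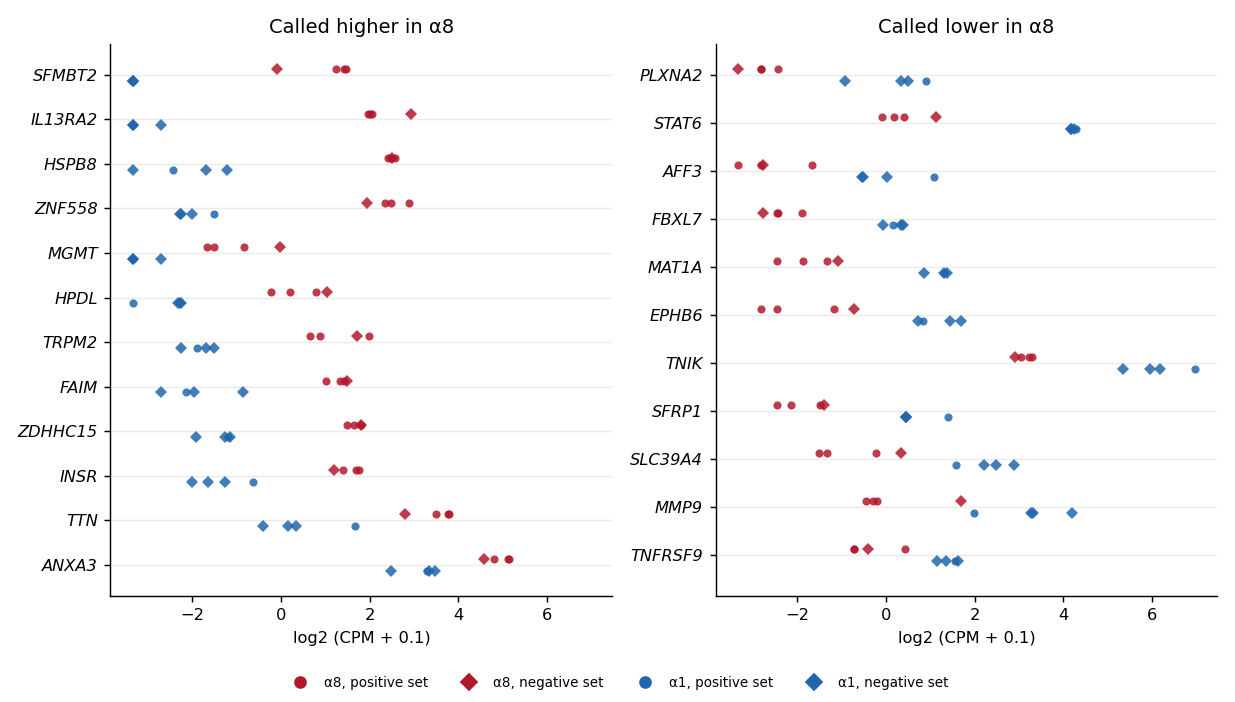
Points are single libraries of the named genes on the log2 (CPM + 0.1) scale, with Δ133p53α8 in red above and Δ133p53α1 in blue below each gene line; circles are libraries of the positive set and diamonds of the negative set. For most genes plotted the naming rule required that the clones do not overlap, so the plot shows the size of the gap and the spread within each clone, which is wide for MMP9 in Δ133p53α8 and narrow for STAT6 in Δ133p53α1.

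Among transcripts that do not encode proteins, 3 were chosen after their values were seen, for their reads. The lncRNA LINC01419 had 1, 0, 8 and 4 reads in Δ133p53α8 and 456, 322, 376 and 353 in Δ133p53α1 (log2 fold change -7.01, SE 0.541, edgeR adjusted p = 1.54e-07). Control had 300 to 602 reads and the Δ133p53β clones 306 to 634, while Δ133p53α2 had 0 to 3 like Δ133p53α8. MT-TM, the mitochondrial methionine tRNA, had 1017, 446, 984 and 1042 reads in Δ133p53α8 and 44, 19, 12 and 24 in Δ133p53α1 (log2 fold change 4.96, SE 0.461, edgeR adjusted p = 1.53e-06). The other lines had 1 to 49 reads of it, so only Δ133p53α8 was high in reads. The libraries were of poly(A) RNA, so these reads need not follow the level of the tRNA itself. MTND2P28, a nuclear pseudogene of mitochondrial MT-ND2 at chr1:629640-630683, had 74, 16, 53 and 70 reads against 554, 719, 952 and 1642 (log2 fold change -4.44, SE 0.485, edgeR adjusted p = 1.98e-05). The other lines had 14 to 92 reads, so Δ133p53α1 was the high line.

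The pseudogene is a copy of MT-ND2, and how reads that fit more than 1 place were counted is not given, so its value is uncertain. MT-ND2 itself had 39087 to 59928 reads in Δ133p53α8 and 39499 to 67468 in Δ133p53α1 (log2 fold change -0.24, edgeR adjusted p = 0.512). The annotation places MT-TM at positions 4402 to 4469 and MT-ND2 at 4470 to 5511 of the mitochondrial genome, so they abut. Of the 13 protein-coding mitochondrial genes, none was called, which says little beside the 0.519% called over all tested genes. RPS26P15, a ribosomal protein pseudogene, was called lower on the reads of a single library: Δ133p53α1 replicate 2 had 272 reads and the others of that clone 7, 12 and 16, against 3 to 8 in Δ133p53α8. Without that library its log2 fold change went from -4.12 to -1.44 (edgeR adjusted p = 0.261).

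The gene lists held few called members, and counts this small say little about a list beside the 0.519% called over all tested genes. Of the 32 tested receptor tyrosine kinases, INSR was higher and EPHB6 lower, with a median log2 fold change of -0.04 against 0.03 over all tested genes. MMP9 was the only called gene of 30 matrix proteases and inhibitors (median -0.17), and PLXNA2 the only one of 41 axon guidance genes (median -0.14). TNFRSF9, the costimulatory receptor 4-1BB, was the only one of 21 NF-kappaB targets and cytokines (median -0.54), with 29, 14, 12 and 12 reads in Δ133p53α8 against 67, 42, 45 and 56 (log2 fold change -1.83, edgeR adjusted p = 0.0295). The TNFRSF9 call was lost when any 1 of 5 libraries was left out, Δ133p53α8 replicates 3 and 4 and Δ133p53α1 replicates 2, 3 and 4 (adjusted p of up to 0.134). With the set as a term the same 5 genes were called, together with ITGB2, the beta 2 integrin of leukocytes, among 27 integrin and laminin genes.

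No member was called in the other lists, where the share over all tested genes would give less than 1 call each. They covered 27 p53 targets (median 0.34), 18 collagens (-0.08), 25 epithelial and mesenchymal genes (-0.57), 16 adhesion molecules (0.15), 5 clustered beta protocadherins (-0.18), 29 NRF2, iron and ferroptosis genes (0.08), 28 interferon response genes (-0.46), 24 cancer-testis antigens (0.10), 31 HOX genes (-0.13), 21 lineage transcription factors (0.07), 13 detoxification genes (0.27), 47 cell cycle genes (0.00), 23 cholesterol synthesis genes (-0.21), 24 hypoxia genes (0.18) and 28 integrated stress response genes (0.50). Some of these medians turned with the set. The epithelial and mesenchymal genes had a median of 0.53 in Δ133p53α8 replicate 2 against Δ133p53α1 replicate 1 and -0.95 in the other 6 libraries, and the interferon genes had 0.47 and -0.79. The integrated stress response genes, which include targets of ATF4, had 0.66 and 0.10, and 0.58 with the set as a term.

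A list of 19 genes held those that the study's text names for its RNA-seq data, chosen on these samples, so their direction is no independent evidence. It also held TRPM2, which the text does not name and whose symbol is close to that of TPM2, which it does. STAT6, MGMT, ANXA3 and TRPM2 were called, as was CRACR2A, which was named after its values were seen. ANXA3, a calcium-dependent phospholipid-binding annexin, had 649, 509, 815 and 841 reads in Δ133p53α8 and 229, 198, 200 and 103 in Δ133p53α1 (log2 fold change 1.75, SE 0.238, edgeR adjusted p = 0.000375). Control had 9 to 12 reads of ANXA3, so both clones were above it. CRACR2A, a regulator of store-operated calcium entry, had 132, 68, 80 and 118 against 47, 25, 22 and 24 (log2 fold change 1.58, edgeR adjusted p = 0.023), but 1.42 and no call with the set as a term, and its call was lost when any 1 of 5 libraries was left out (Δ133p53α8 replicates 1 and 4 and Δ133p53α1 replicates 2, 3 and 4, adjusted p of up to 0.105). SOX9, NDRG1, RIPK4, RTL6, LDHAL6FP, ADPRH and SPATC1 had 0 or 1 read in each of the 8 libraries, so no difference between the clones was detectable at this depth. The remaining 7 genes were not called.

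A list was also made for the cell surface proteins that the study measured. Of its 5 tested genes, none was called, which says little beside the 0.519% called over all tested genes. EGFR had 3001, 972, 2614 and 3398 reads in Δ133p53α8 and 3355, 893, 641 and 552 in Δ133p53α1 (log2 fold change 0.77, edgeR adjusted p = 0.318, and 0.19 with the set as a term). MET had 1475, 797, 1344 and 1573 against 1903, 599, 486 and 541 (log2 fold change 0.43, edgeR adjusted p = 0.453, and 0.02 with the term). In both genes the positive set was high and the negative set low, whichever the clone. TFRC, the transferrin receptor, had 11938, 2605, 6129 and 9754 reads against 9427, 4920, 3124 and 1905 (log2 fold change 0.50, edgeR adjusted p = 0.562, and -0.19 with the term), and the clones overlapped. ITGA5, the fibronectin receptor subunit, had a log2 fold change of -0.74 (edgeR adjusted p = 0.135) and KDR had at most 18 reads in any library. KDR encodes VEGFR2 and stood in the list beside FLT1, the gene of the VEGFR1 that the study's antibody binds, which was too low to be tested.

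**Figure D4:**
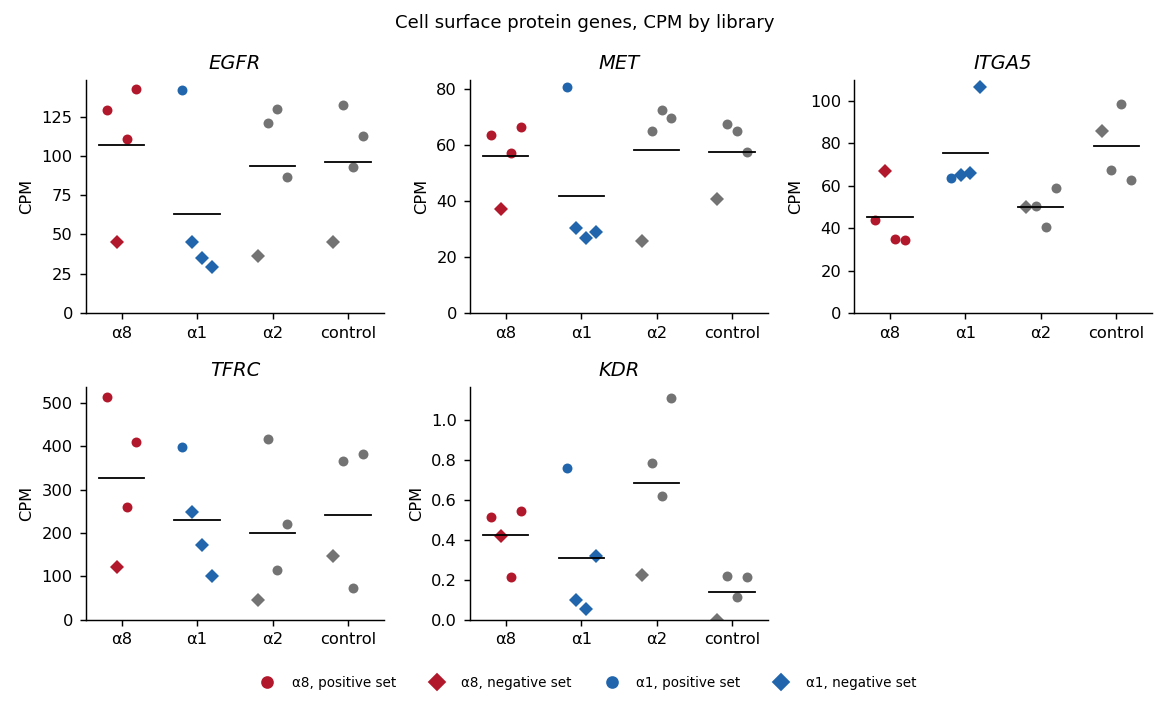
CPM of 5 genes from the cell surface list in each library of Δ133p53α8, Δ133p53α1, Δ133p53α2 and control, with the mean of each line as a bar; circles are libraries of the positive set and diamonds of the negative set. EGFR and MET separate the sets in each line rather than Δ133p53α8 from Δ133p53α1.

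The labelled cell type was checked against marker genes, and both clones gave the same pattern. KRT8 (29615 to 68034 reads), KRT18 (21676 to 57304) and VIM (41352 to 95053) were high in all 8 libraries, while the epithelial genes CDH1 (0 reads), EPCAM (at most 2) and KRT19 (at most 4) were at or near 0. Of the lung markers, NKX2-1 had 4 to 14 reads and SFTPB, SFTPC and NAPSA at most 8. Among markers of other cells, PTPRC and CD3E had no read and VWF and DCN at most 5, while CD68 had 17 to 34, COL1A1 14 to 41 and PECAM1 1 to 12, and the neuroendocrine marker SYP had 28 to 51.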

How the data were processed

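The authors sequenced poly(A) RNA in strand-specific libraries. Trimming was by Cutadapt 2.6, alignment to GRCh38 by HISAT2 2.1.0 and counting over exons of Ensembl GRCh38.107 genes by featureCounts 1.5.3. Whether strand was used in counting, and how multi-mapping reads were treated, is not given in the sources used here. The deposited values are raw counts of reads for each gene in each library. The table names 60563 genes, besides 1 unnamed row with 0 counts, which was left out. Libraries were mapped to lines by their labels. The name of 1 column matched no label, and that column was not used.

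The main test was edgeR 4.0.16 in R 4.3.3. It used TMM scaling, filterByExpr (which kept 18295 genes holding 99.88% or more of every library's counts) and a single quasi-likelihood fit of 6 groups and 23 libraries with 17 residual degrees of freedom. P-values were adjusted by Benjamini-Hochberg over all tested genes, and calls required 0.05 for the adjusted p and 1.5 for the size of the log2 fold change, the thresholds of the study's methods. CPM values use the effective library sizes. The set of a library is the sign of Spearman's rho between its gene deviations (log2 CPM, prior count 2) and exonic length in GENCODE annotation of GRCh38, known for 97.9% of the tested genes. Differences between single libraries were taken on log2 of CPM plus 0.1. At this depth a library with 0 reads of a gene allows up to 3 reads. Intervals and floors cover counting error only, because reads carry no molecular identifiers. Pairs of libraries of a clone differed with a chi-square of at least 15.8 per degree of freedom, so none repeats another. The fit was tested on simulated data without the sets of libraries, so that test does not cover the confounding of set and clone.

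The genes named were the 10 protein-coding genes with the largest rises and the 10 with the largest falls (called with and without the set as a term, no overlap between clones, at least 1 CPM in the higher clone), up to 4 called members of each gene list, and runs of at least 3 called neighbours. The comparison, the lists and this rule were chosen with earlier results of these data known. Alternatives were DESeq2 1.42.0, limma 3.58.1 (voom), RLE size factors, other filters, another fold threshold, the 8 libraries alone, a replicate block, each set alone, and each library left out. Promoter sequences came from RefSeq (GRCh38.p14). The result of 1 gene is not reported here. The paper's search for enriched processes was not repeated.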

Additional observations from a re-analysis of the deposited data

Results flagged for a closer look

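In 74 groups of 4 libraries of 1 clone, 1 library of the named genes stood apart from the other 3 by more than Dixon's 95% critical value in 11. That value assumes independent normal values, and these groups share the same libraries, so the 11 cannot be set against a chance rate. Of these, 7 were Δ133p53α8 replicate 2 or Δ133p53α1 replicate 1, the libraries whose set differs from the rest of their clone. In Δ133p53α8 replicate 2, IL13RA2 was at 7.51 CPM against 3.78 to 4.05 in the others of its clone, and MMP9 at 3.125 CPM against 0.637 to 0.776. In Δ133p53α1 replicate 1, EGFR was at 141.8 CPM against 29.4 to 45.2, MET at 80.42 CPM against 26.7 to 30.4, SFRP1 at 2.536 CPM against 1.26 to 1.28, CRACR2A at 1.986 CPM against 1.21 to 1.28, and HPDL at 0 CPM against 0.101 to 0.110. In Δ133p53α1 replicate 4, ITGA5 was at 106.2 CPM against 63.5 to 66.0 and MAT1A at 1.705 CPM against 2.36 to 2.48. The single reads of IL13RA2 in Δ133p53α1 replicate 4 (0.05328 CPM) and of MGMT in Δ133p53α1 replicate 3 (0.05493 CPM) were flagged because the other 3 libraries had 0. EGFR and MET had lower levels in the negative set of Δ133p53α8, Δ133p53α2 and control as well. The cause of these differences was not tested.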

How the results depend on the processing

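None of the called genes reversed direction in any of the 29 alternatives. Of the 95, 10 kept their call in every alternative that tested them, among them SFMBT2, IL13RA2, HSPB8, ZNF558, STAT6, TNIK and LINC01419. With any 1 library left out, 43 kept it wherever they were tested, and 53 did so with the set as a term. CYB5R2 and HLA-DQB1 were among the 43, but passed the expression filter in only 5 of the 8 fits with a library left out. Both failed it without Δ133p53α1 replicate 1, 2 or 3. The numbers of genes called higher and lower (46 and 49) became 102 and 121 with DESeq2, 70 and 65 at a fold change of 1.5, 27 and 28 with a mean of at least 1 CPM, and 18 and 20 with only the 8 libraries. RLE size factors gave 46 and 50, limma voom 49 and 58 and no filter 43 and 51. Within the negative set they were 20 and 4 and within the positive set 7 and 10, where 1 clone has a single library that is assumed to vary like the rest. Without both libraries that differ from their clone in set they were 1732 and 1484, since the clone and the set then coincide. Leaving out single libraries gave 25 to 1002 higher and 21 to 341 lower, both highest without Δ133p53α1 replicate 1, and 38 to 49 and 32 to 61 with the set as a term. Depth limits the genes under 1 CPM, which make up 24 of the 95.

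With the replicate number as a replicate block, 35 genes were called higher and 31 lower, and 46 and 42 with the set as a term as well. Same-numbered libraries of the clones had correlations of 0.35, 0.06, -0.34 and -0.60 between their deviations from the clone means. The set was not removed from these deviations, so they do not decide whether the replicate numbers pair the libraries.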
